A study of Mus musculus with 32 samples.

Results

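Expression of the genes that encode the proteasome was examined in brown adipose tissue of refed mice. The members were the genes whose array name is Psm followed by a letter from a to g and a number. The array carried 47 such genes under 90 probes, and 45 of them, with 84 probes, had values in the deposited table, of 24523 gene names whose probes passed the filter on dim signals. The other two were Psma8, a testis form of a core subunit, and Psmb11, the thymus form of a catalytic subunit. The Psmb11 probe was well above background on 0 of 32 arrays, and the probes of Psma8 on 0 and on 11 of 32 arrays.

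The 32 arrays fell into 4 groups of 8 male C57BL6/J mice. Total ChREBP KO mice carry a null Mlxipl gene and lack both isoforms of the glucose-responsive transcription factor ChREBP, whereas in ChREBPβ KO mice CRISPR/Cas9 deletion removed the exon from which the β isoform starts. Each KO was compared with WT littermates of its own line, and the study used several litters and derived 2 edited lines per strain for ChREBPβ deficiency. Every mouse had fasted for 24 hours before 18 hours of refeeding, with food and with 20% glucose in the water. Each array is taken as 1 mouse, as the labels number them, and p-values measure the spread between these arrays. Values are log2 intensities after quantile normalization, and the brightest probe stands for its gene.

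The proteasome is the protease that degrades ubiquitin-tagged proteins. Its barrel-shaped core is built from outer α rings and inner β rings, and 3 kinds of β subunit cut proteins. Under interferon, other catalytic subunits take their place and form the immunoproteasome. The regulatory particle, made of a base with ATPases and a lid, binds the core, removes ubiquitin and unfolds the substrate. Other activators, an inhibitor and assembly chaperones complete the family. In brown fat, proteasome activity is known to be raised during cold exposure through the transcription factor Nfe2l1.

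Ucp1, the uncoupling protein that defines brown fat, was bright on every array. Its log2 intensity ran from 18.22 to 18.62, with means between 18.43 and 18.53 in the 4 groups. Quantile normalization gives the brightest probes shared values. The maximum of Ucp1 was 18.5339 in total ChREBP KO and in both ChREBPβ-line groups. In the latter it was also that of the adipocyte marker Fabp4. Like means of Ucp1 therefore do not show equal amounts of its RNA. Other brown adipocyte markers differed between groups. Of the 6 listed, Ucp1 among them, 3 were higher and 1 lower in total ChREBP KO (limma, adjusted p under 0.05). Between the WT groups, 1 was higher and 3 were lower in the ChREBPβ line. The brightest probe of Mlxipl, at chr5:135613705-135613764 in mouse build mm9, had a log2 intensity of 15.98 to 16.33 in total-line WT and of 13.49 to 13.91 in total ChREBP KO. It was 16.15 to 16.55 in ChREBPβ-line WT and 14.68 to 14.99 in ChREBPβ KO, and its place relative to the deleted parts was not determined. Signals well above background came from 64.4% to 71.1% of spots on each array. Skeletal muscle markers separated the lines: the mean over 8 genes lay between 12.56 and 16.08 in total-line WT and between 14.16 and 15.69 in total ChREBP KO, but between 5.79 and 11.84 in ChREBPβ-line WT and between 5.86 and 11.23 in ChREBPβ KO. In a bulk sample, fewer cells of a type and less RNA per cell cannot be told apart.

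The sequences before the gene starts were searched because members of 1 complex moved in both directions. RefSeq (GRCm38.p6) windows of 250 bases before to 50 bases after the start were found for 38 of the 45 members, and 2 members had more than 1 window. The E-box CACGTG reads the same on both strands. The element that ChREBP binds is a pair of sites like it, and such pairs were not searched for. The E-box itself occurred in 4 of 38 members (10.5%) and in 2187 of all 27025 genes with a window (8.09%). It was found in 3 of the 8 members that were higher in total ChREBP KO, in 0 of the 14 with a window that were lower, and in 1 of 16 that did not pass the test. The 150 bases before the start are shown 5′ to 3′ for these 4 genes, with the E-box in capitals. They are Psmb10 (chr8:105938393-105938542 on the minus strand), Psmd9 (chr5:123228040-123228189 on the plus strand), Psme3 (chr11:101316063-101316212 on the plus strand) and Psma4 (chr9:54950709-54950858 on the plus strand), of which Psma4 did not pass the test by its brightest probe in any comparison.
Psmb10: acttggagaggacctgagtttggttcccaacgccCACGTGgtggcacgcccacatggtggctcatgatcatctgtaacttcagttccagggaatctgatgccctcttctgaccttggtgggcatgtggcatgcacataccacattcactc
Psmd9: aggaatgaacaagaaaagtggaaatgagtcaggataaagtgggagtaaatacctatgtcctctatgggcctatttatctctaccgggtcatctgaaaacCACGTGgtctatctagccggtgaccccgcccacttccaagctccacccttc
Psme3: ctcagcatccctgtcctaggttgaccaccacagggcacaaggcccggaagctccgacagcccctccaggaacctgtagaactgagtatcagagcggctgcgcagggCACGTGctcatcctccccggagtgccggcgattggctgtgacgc
Psma4: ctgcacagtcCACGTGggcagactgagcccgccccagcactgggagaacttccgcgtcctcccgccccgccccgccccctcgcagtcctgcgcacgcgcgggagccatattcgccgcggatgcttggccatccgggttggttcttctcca

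Further motifs were searched on both strands in the same windows, and no pair of different motifs overlapped. The core of the antioxidant response element, TGACNNNGC, through which Nfe2l1 and Nfe2l2 act, was present in 6 of 38 members (15.8%) and in 14% of all genes. Catalytic subunits Psmb5 and Psmb6 were among these 6, and the last 60 bases before their starts, at chr14:54617996-54618055 on the minus strand and at chr11:70525297-70525356 on the plus strand, are shown with this core in capitals.
Psmb5: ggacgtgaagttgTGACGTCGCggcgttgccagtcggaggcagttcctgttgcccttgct
Psmb6: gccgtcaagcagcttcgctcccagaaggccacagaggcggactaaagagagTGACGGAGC
The CCAAT box was present in 13 members (34.2%, all genes 41.1%), and the core of the interferon-stimulated response element in 5 members (13.2%, all genes 3.99%): Psmb3, Psmd4, Psmd9, Psme1 and Psmg4. The last motif was found in 3 of the 8 higher members, 1 of the 14 lower and 1 of the 16 not called. This split was close to that of the E-box, and Psmd9 counted in both. For the antioxidant core the same counts were 1, 1 and 4, and for the CCAAT box 3, 4 and 6. Psmb10 and Psmb3 were not among the higher members at 75th percentile scaling. A link between motif and direction was not tested. A match describes letters in these windows and not a bound site.

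Total ChREBP deficiency was associated with small shifts of many proteasome genes, in both directions. Many genes outside the family shifted as well: 55.6% of members and 44.1% of all gene names passed the limma test. The median absolute log2 difference was 0.15 for members and 0.17 for all genes. Members varied less among arrays, with a median SD of 0.08 in total-line WT and 0.09 in KO (all genes 0.14 and 0.15). Of the 45 members, 17 were lower and 8 were higher in total ChREBP KO than in WT (limma, Benjamini-Hochberg adjusted p under 0.05), where 21.1% of all gene names were lower and 22.9% higher. The 8 higher members were 3 (Psmd9, Psme1 and Psme3) when arrays were scaled to their 75th percentile, with 25 members lower for the processed signal and 23 for the median intensity, and 0 of the 25 differences changed sign. The median log2 difference of the members was -0.06 (all genes 0.01), and the largest by the brightest probes was a drop to 0.654 of the WT intensity. In the regulatory particle, counted with its assembly chaperones, 11 of 20 genes were lower and 2 higher. In the constitutive core 4 of 14 were lower and 3 higher. None of the 8 muscle markers passed the test in either KO, nor at an unadjusted p under 0.05 (limma, 0 of 8 in both). All 8 differences were below 0 in ChREBPβ KO, from -1.45 to -0.27 (median -0.75), against 3 of 8 in total ChREBP KO (median 0.09). With SEs of 0.45 to 1.45 the failed tests do not show that the muscle signal was alike.

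In the lid, 7 of 8 genes were lower and 1 was higher, with a median log2 difference of -0.26. Psmd14, the deubiquitinase that cuts ubiquitin chains from substrates (probe at chr2:61638292-61638351, mm9), ranged from 12.72 to 13.02 in total-line WT (median 12.88) and from 12.21 to 12.49 in total ChREBP KO (median 12.32). The groups did not overlap, and the log2 difference was -0.56 ± 0.05 (SE, n = 8 per group, limma adjusted p = 9.49e-11), with -0.47 to -0.67 within the 4 wash batches. A second bright probe of Psmd14 gave -0.62.

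Psmd7, which pairs with Psmd14 in the lid, had intensities of 12.25 to 12.49 in WT (median 12.38) and of 11.89 to 12.18 in KO (median 11.98), again without overlap. Its log2 difference was -0.39 ± 0.05 (limma adjusted p = 1.72e-07), while its dimmer probe gave -0.05. The structural lid subunits Psmd6 (-0.31 ± 0.05) and Psmd12 (-0.28 ± 0.04) also fell, with WT arrays at 13.27 to 13.58 and 14.04 to 14.18 and KO arrays at 12.93 to 13.25 and 13.66 to 13.99. No KO array reached the lowest WT array for either gene. Psmd3, Psmd11 and Psmd13 fell by 0.21, 0.20 and 0.24 on the log2 scale. The exception was Psmd8, another lid subunit, which was 0.19 ± 0.06 higher, with overlapping arrays (13.03 to 13.30 in WT, 13.14 to 13.54 in KO), and whose call was lost at 75th percentile scaling and with slide as a fixed block.

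In the base, 2 of the 6 ATPases passed the test, and both fell. Psmc4, 1 of the ATPases that unfold substrates, ranged from 13.06 to 13.28 in WT (median 13.16) and from 12.69 to 12.91 in KO (median 12.77). Its log2 difference was -0.40 ± 0.05 (limma adjusted p = 2.23e-08), within batches -0.30 to -0.50, and its second probe gave -0.32. Psmc5 fell by 0.19. Psmc1, Psmc2, Psmc3 and Psmc6 had differences of -0.02 to -0.11 and did not pass the test. The dimmer probe of Psmc6, however, gave -0.88 (limma adjusted p = 2.02e-13), against -0.08 for its brightest probe. Of the base subunits without ATPase activity, the scaffold Psmd1 fell by 0.25, whereas the scaffold Psmd2 (-0.07) and the ubiquitin receptor Psmd4 (-0.01) did not pass the test, although the other 2 probes of Psmd4 did (-0.12 and -0.30). The chaperones that assemble the base diverged: Psmd10 fell by 0.24, Psmd9 rose by 0.19 (9.17 to 9.38 in WT, 9.41 to 9.54 in KO, call lost with slide as a fixed block) and Psmd5 had a difference of -0.01.

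**Figure D1:**
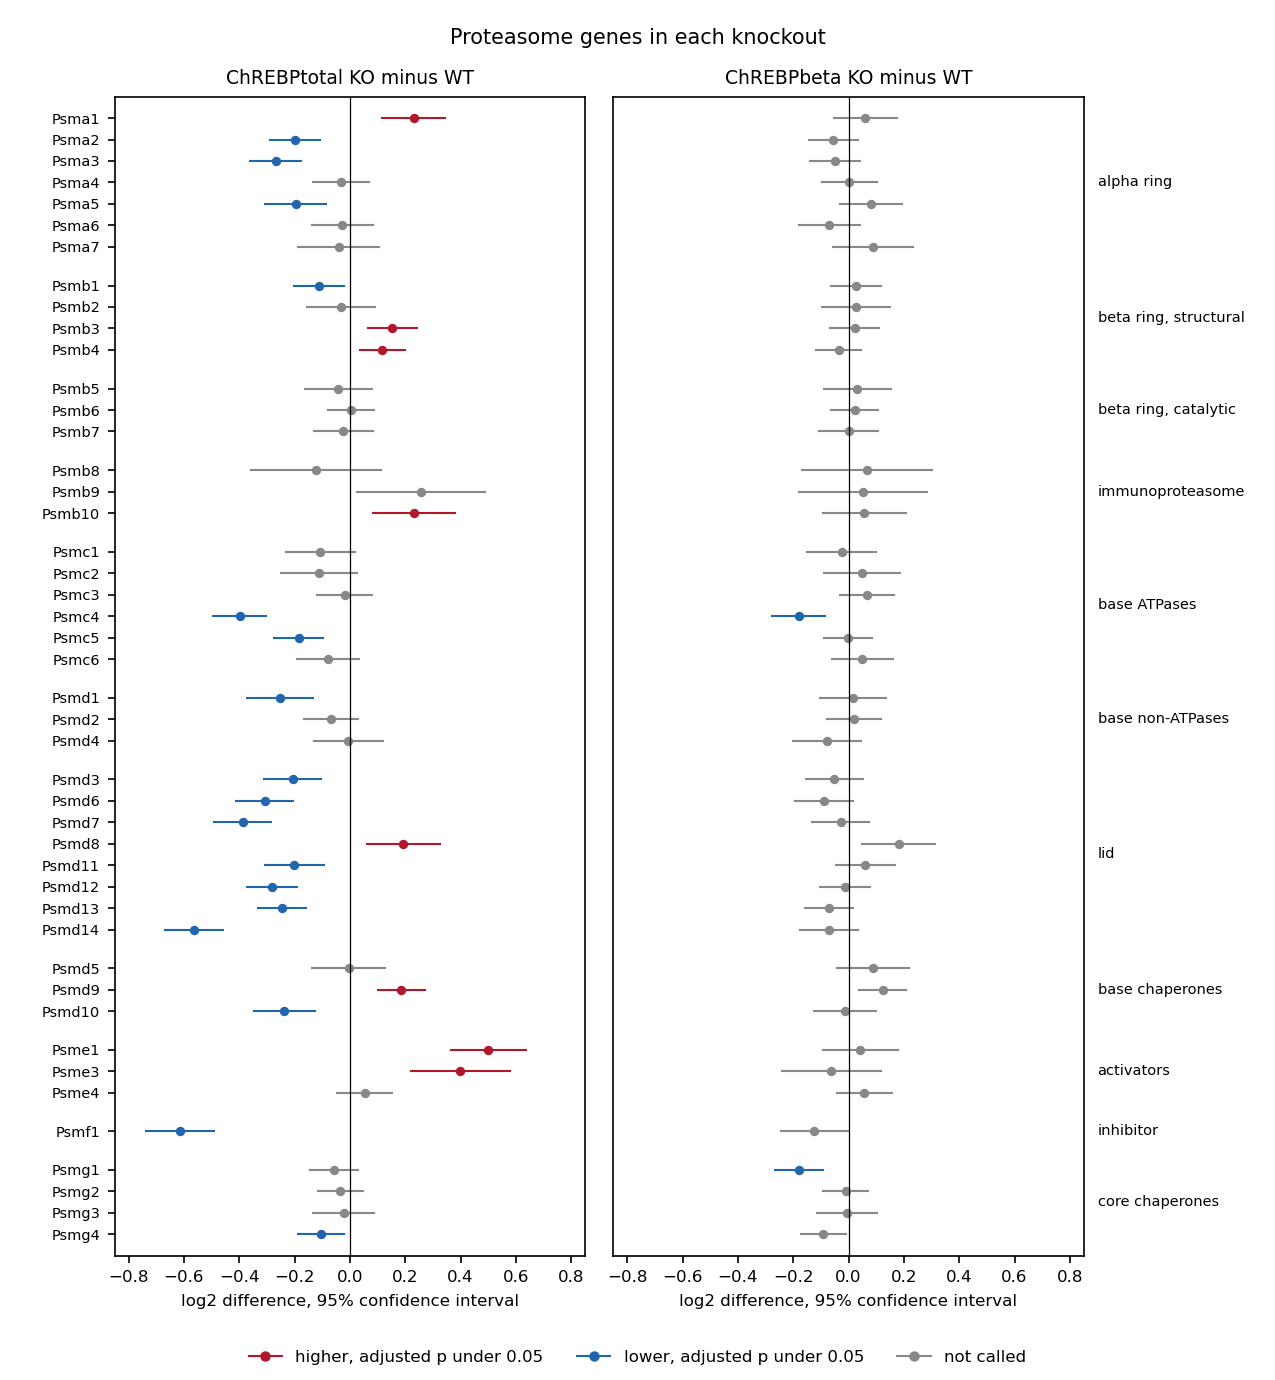
Log2 difference of each of the 45 proteasome genes between KO and WT (x axis, points with 95% confidence intervals from limma, n = 8 arrays per group), ordered by role, for total ChREBP (left) and ChREBPβ (right). Red points are higher and blue points lower at an adjusted p under 0.05: 8 and 17 genes at left, 0 and 2 at right.

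In the α ring of the core, which forms the gate, Psma3 (-0.27 ± 0.04), Psma2 (-0.20 ± 0.04) and Psma5 (-0.20 ± 0.05) fell and Psma1 rose (0.23 ± 0.06), although the Psma1 call was lost at 75th percentile scaling. The Psma1 arrays overlapped, at 13.81 to 14.14 in WT and 14.05 to 14.41 in KO. Psma4, Psma6 and Psma7 had differences of -0.03 to -0.04 and did not pass the test, while 1 of the 3 dimmer probes of Psma4 did (-0.13). Among the β subunits without a catalytic site, Psmb1 fell by 0.11, Psmb3 rose by 0.15 and Psmb4 rose by 0.12, the last 2 not at 75th percentile scaling. Psmb2 (-0.03) did not pass the test.

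None of the 3 constitutive catalytic subunits passed the test in either KO (limma), nor at an unadjusted p under 0.05. Psmb5, which carries the chymotrypsin-like activity, had medians of 13.92 in total-line WT, 13.85 in total ChREBP KO, 13.93 in ChREBPβ-line WT and 13.95 in ChREBPβ KO. Its difference in total ChREBP KO was -0.04, with a 95% confidence interval from -0.16 to 0.08. The intervals ran from -0.08 to 0.09 for Psmb6, the caspase-like subunit, and from -0.13 to 0.08 for Psmb7, the trypsin-like subunit. In ChREBPβ KO they ran from -0.09 to 0.15, from -0.06 to 0.11 and from -0.11 to 0.11. A dimmer probe of Psmb6 passed the test in total ChREBP KO (0.14), and Psmb5 was lower when the median intensity was scaled to its 75th percentile.

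Each of these subunits has a counterpart in the immunoproteasome. Psmb10, which replaces Psmb7, was 0.23 ± 0.07 higher in total ChREBP KO (limma adjusted p = 0.0103), with 12.61 to 13.31 in WT (median 12.99) and 12.99 to 13.36 in KO (median 13.24). The arrays overlapped, and the call was lost at 75th percentile scaling and with slide as a fixed block. Psmb9, which replaces Psmb6, had a difference of 0.26 ± 0.11 and did not pass the test (limma adjusted p = 0.0657), with 9.71 to 10.57 in WT and 9.96 to 10.62 in KO. Psmb8, which replaces Psmb5, had a difference of -0.12 ± 0.12, with 10.04 to 10.54 in WT and 9.81 to 10.60 in KO. The largest SD of any member was that of Psmb9 in total-line WT (0.27) and that of Psmb8 in the other groups (0.20 to 0.32), against a median SD over members of 0.08 to 0.10.

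Leukocytes use the immunoproteasome constitutively, so their markers are given beside these values. The mean over 9 leukocyte genes, of 10 listed, lay between 9.69 and 10.08 in total-line WT and between 9.56 and 10.04 in total ChREBP KO. Of the 9, Cd68 and Laptm5 were lower, 1 was higher and 6 did not pass the test. In a fit with their mean as a covariate Psmb10 kept its call, and Psmb9 passed the test there and with array weights.

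**Figure D2:**
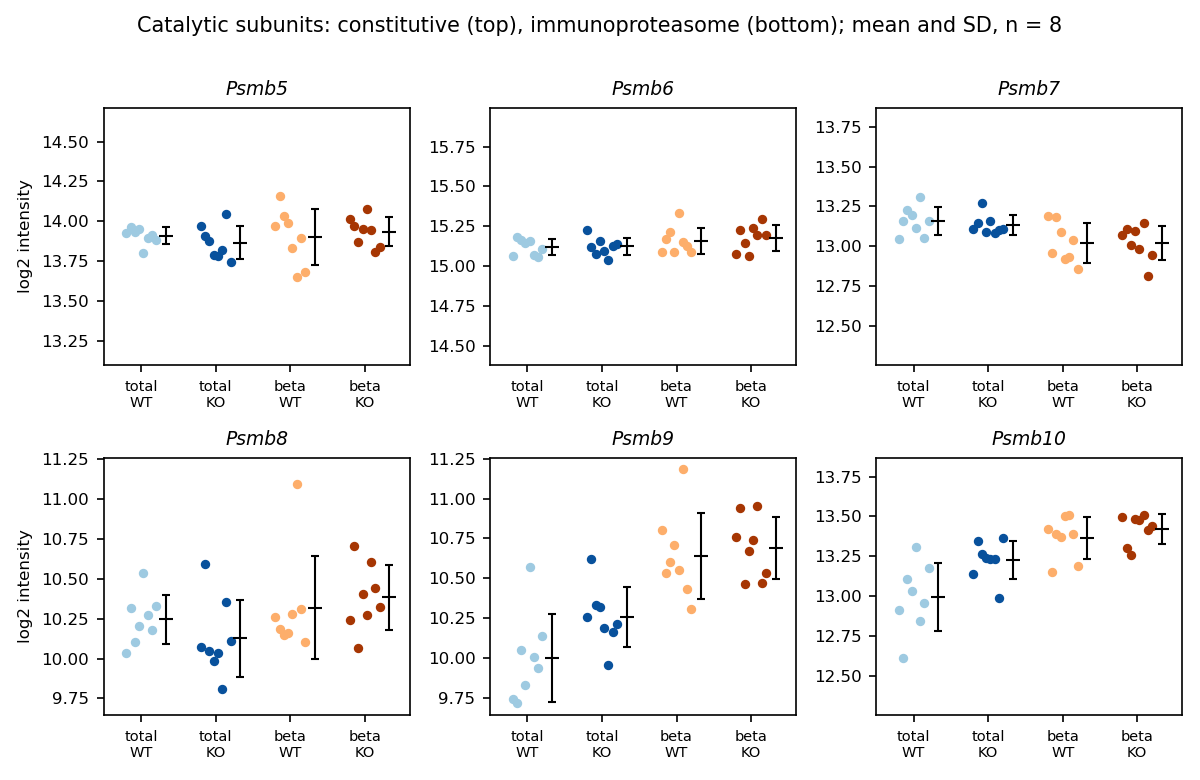
Normalised log2 intensity (y axis) of the constitutive catalytic subunits (top) and their immunoproteasome counterparts (bottom) on each of 8 arrays per group; bars are mean and SD, and all panels span the same number of log2 units. Psmb5 and Psmb6 sit at like levels in the 4 groups, and Psmb9 and Psmb10 sit higher on average in both groups of the ChREBPβ line than in total-line WT.

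The activators that bind the core in place of the regulatory particle were the members with the largest rise. Psme1, an interferon-inducible activator subunit (probe at chr14:56200194-56200253, mm9), ranged from 13.19 to 13.47 in WT (median 13.35) and from 13.52 to 14.09 in KO (median 13.83), without overlap. The log2 difference was 0.50 ± 0.07 (limma adjusted p = 2.29e-07), with 0.32 to 0.74 within wash batches. Psme3, the nuclear activator, was 0.40 ± 0.09 higher (limma adjusted p = 0.000389), with 10.73 to 11.34 in WT (median 11.03) and 11.28 to 11.79 in KO (median 11.41). Its groups overlapped, and its dimmer probe gave 0.06. Psme4, an activator found in nuclei, had a difference of 0.05 and did not pass the test.

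The partner of Psme1 in its ring, Psme2, is not among the gene names of the array. Probes named Psme2b, after a near copy of Psme2 on another chromosome, lie outside the name pattern, and it was not tested whether they also read Psme2. They were higher in total ChREBP KO, by 0.22 (limma adjusted p = 0.00337) and by 0.15 (limma adjusted p = 0.00726).

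Psmf1, a protein that inhibits the core in vitro, showed the largest difference by the brightest probes and the only one of at least 1.5-fold among them (probe at chr2:151542485-151542544, mm9). It ranged from 9.44 to 9.68 in WT (median 9.57) and from 8.77 to 9.11 in KO (median 8.94), without overlap, a log2 difference of -0.61 ± 0.06 (limma adjusted p = 4.57e-10). Within the wash batches the difference was -0.56 to -0.75, and the dimmer probe gave -0.16. Of the 4 chaperones that assemble the core, Psmg4 fell by 0.10 and Psmg1, Psmg2 and Psmg3 had differences of -0.02 to -0.06 that did not pass the test.

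**Figure D3:**
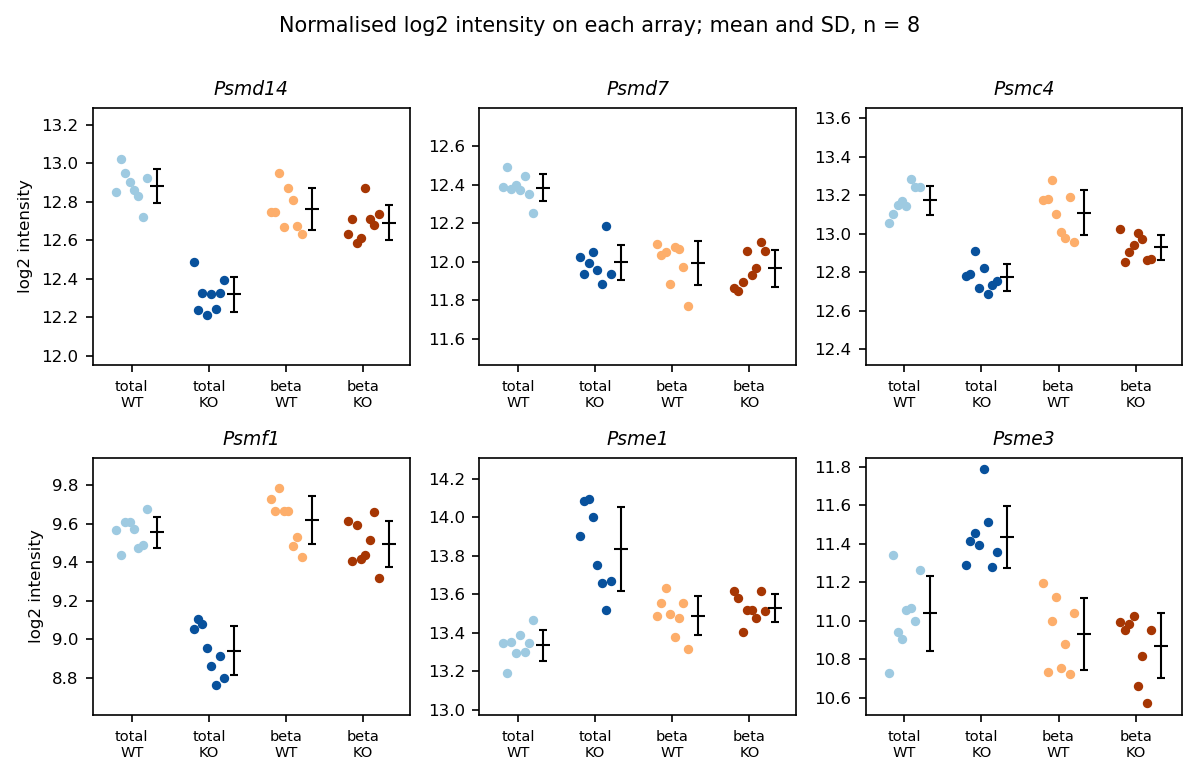
Normalised log2 intensity (y axis) on each of 8 arrays per group for the lid subunits Psmd14 and Psmd7, the ATPase Psmc4, the inhibitor Psmf1 and the activators Psme1 and Psme3; bars are mean and SD, and all panels span the same number of log2 units. Total ChREBP KO arrays lie below all total-line WT arrays for the first 4 genes and above them for Psme1, while Psme3 overlaps.

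Genes that work with the proteasome but have other names were counted in the same comparison. Of all gene names, 44.1% passed the test there, 21.1% lower and 22.9% higher. Of 8 partner proteins, 6 fell and 1 rose. The thioredoxin-like Txnl1 (-0.34), the ubiquitin ligase Ube3c (-0.33) and the deubiquitinase Usp14 (-0.32) fell most, and AI314180, which RefSeq now lists as the proteasome scaffold Ecpas, rose by 0.24. Among 8 regulators of proteasome genes, the transcription factor Nfe2l1 fell by 0.21 and Vcp, an unfolding ATPase that acts ahead of the proteasome, by 0.16. Foxo1 (0.68), Foxo3 (0.26) and Nfe2l2 (0.22), also transcription factors, rose. Of 10 genes for ubiquitin, its activating enzyme and its shuttles, 2 fell, among them Rps27a (-0.13), which encodes ubiquitin fused to a ribosomal protein, and Ubqln4 (0.27) and Uba1 (0.20) rose. In the list of 11 antigen processing and interferon genes, 4 rose, among them Irf1 (0.34) and Nlrc5 (0.31), and the peptidase Erap1 fell by 0.20. The shares called were 87.5% of the partners and 62.5% of the regulators. They were 40% of the ubiquitin list and 45.5% of the antigen processing list, near the share of all gene names.

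Few members passed the test on loss of the β isoform alone. In ChREBPβ KO, 2 of 45 members were lower and 0 were higher (limma), where 1.33% and 1.37% of all gene names were, and 6 members had an unadjusted p under 0.05. The median log2 difference of the members was 0.00 to 2 decimals, as was that of all genes. Psmg1, a chaperone that starts assembly of the α ring, ranged from 12.69 to 12.90 in ChREBPβ-line WT (median 12.76) and from 12.51 to 12.70 in ChREBPβ KO (median 12.59), a difference of -0.18 ± 0.04 (limma adjusted p = 0.0145). The highest KO array lay just above the lowest WT array. Psmc4 was again lower, with 12.96 to 13.28 in WT (median 13.14) and 12.86 to 13.02 in KO (median 12.93), a difference of -0.18 ± 0.05 (limma adjusted p = 0.0306) with overlapping arrays. Its call was lost in 6 fits that left out 1 array: ChREBPβ-line WT replicate 1, 2 or 3, or ChREBPβ KO replicate 2, 7 or 8, which left 1 member called. The replicate block also ended the Psmc4 call, and fits with slide as a fixed block or with these groups alone called 0 members.

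The next lowest p-values belonged to Psmd9 (0.12 ± 0.04, limma adjusted p = 0.117) and Psmd8 (0.18 ± 0.06, limma adjusted p = 0.146), which did not pass the test. For the immunoproteasome subunits the differences in ChREBPβ KO were 0.07 ± 0.12 for Psmb8, 0.05 ± 0.11 for Psmb9 and 0.06 ± 0.07 for Psmb10. Psme1 was 13.32 to 13.64 in WT (median 13.49) and 13.41 to 13.62 in KO (median 13.52), with a 95% confidence interval of the difference from -0.09 to 0.18. None of the genes in the lists of partners, regulators, ubiquitin and antigen processing passed the test (limma), and 2 of 8, 1 of 8, 0 of 10 and 1 of 11 had an unadjusted p under 0.05.

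The effects of the KOs were then compared directly, as the ChREBPβ KO difference minus the total ChREBP KO difference. For 13 members this was above 0 and for 3 below at an adjusted p under 0.05, where 12.2% and 13% of all gene names were (17 and 2 members at 75th percentile scaling). It was largest for Psmd14 (0.49 ± 0.07, limma adjusted p = 4.08e-06), Psmf1 (0.49 ± 0.08), Psmd7 (0.36 ± 0.07) and Psma5 (0.28 ± 0.08), which fell in total ChREBP KO and did not pass the test in ChREBPβ KO. Among the members that passed this test it was lowest for Psme3 (-0.46 ± 0.12), Psme1 (-0.46 ± 0.09) and Psmb4 (-0.15 ± 0.06), which rose in total ChREBP KO. The Psmb4 call was lost in 10 of 15 alternative fits and in 19 that left out 1 array. By role, the lid held 6 of the 13 genes. Of the members with the largest values, Psmd7 (-0.39) and Psma5 (-0.22) were also lower in ChREBPβ-line WT than in total-line WT. Psmd14 and Psmf1 did not pass that test between the WT groups. Each KO was measured in its own line, so isoform and line cannot be told apart here. For Psmc4, lower in both KOs, the drop was larger in total ChREBP KO, by 0.22 ± 0.07 (limma adjusted p = 0.0144). For the catalytic subunits Psmb5 to Psmb10 the KO effects were not shown to differ, with values from -0.21 to 0.19.

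The WT littermates of the lines differed as well, and these comparisons share their WT arrays with those above. In ChREBPβ-line WT, 18 members were lower and 4 higher than in total-line WT (limma), where 14.1% and 24.8% of all gene names were. At 75th percentile scaling 17 were lower and 7 higher for the processed signal, and 16 and 5 for the median intensity. The median difference was -0.12 (all genes 0.05). All 8 skeletal muscle markers were lower by 4.57 to 7.09 on the log2 scale in the same comparison, with no overlap of their mean between the groups. With muscle and liver marker means as covariates, 7 members passed the test, 3 higher and 4 lower, and with the muscle mean alone, an alternative added after the data had been seen, 6 did. Line and muscle signal cannot be told apart here. None of 6 liver markers passed the test between the WT groups (limma, 1 at an unadjusted p under 0.05), with a mean of 5.31 to 13.50 in ChREBPβ-line WT and of 5.32 to 11.51 in total-line WT. All 6 differences were nevertheless above 0, from 1.45 to 2.42 (median 2.21), with SEs of 0.85 to 1.61.

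Higher in ChREBPβ-line WT were Psmb9 (9.71 to 10.57 against 10.31 to 11.18, difference 0.64 ± 0.11, limma adjusted p = 3.6e-05), Psmb10 (0.37 ± 0.07), Psmg4 (0.32 ± 0.04) and Psmg1 (0.15 ± 0.04, call lost with the muscle covariates). Within the wash batches Psmb9 was higher by 0.56 to 0.61 and Psmb10 by 0.08 to 0.45. Psmb8 had a difference of 0.07 ± 0.12 and did not pass the test. In the antigen processing list 3 of 11 genes were higher (27.3%, all gene names 24.8%) and 0 were lower (all gene names 14.1%). The higher ones were the peptide transporter genes Tap1 and Tap2 and the transcription factor gene Irf1. The mean over the leukocyte markers was 9.70 to 10.20 in ChREBPβ-line WT and 9.69 to 10.08 in total-line WT, with 2 of 9 higher and 2 lower. Lowest were Psmd7 (-0.39 ± 0.05), Psmd9 (-0.33 ± 0.04), the activator Psme4 (-0.32 ± 0.05) and Psma1 (-0.28 ± 0.06, call lost with the muscle covariate alone). The Psmd7 value came from its brightest probe, and the call was lost for the median over its probes. The catalytic subunit Psmb7 was lower by a small margin (-0.14 ± 0.05, limma adjusted p = 0.0402), a call lost in 7 of 16 alternative fits and in 9 that left out 1 array (total-line WT replicate 2, 3, 4, 6 or 8, or ChREBPβ-line WT replicate 2, 5, 6 or 8). In this comparison, 12 of the 20 genes of the regulatory particle and its assembly chaperones were lower and 0 higher. All 20 differences were below 0 without covariates. With muscle and liver covariates only Psmd7 and Psmd9 of these kept a call. Psmc1 (0.08), Psmc2 (0.05), Psmc3 (0.10), Psmd1 (0.01), Psmd3 (0.02) and Psmd4 (0.03) were then above 0, and the others stayed below.

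**Figure D4:**
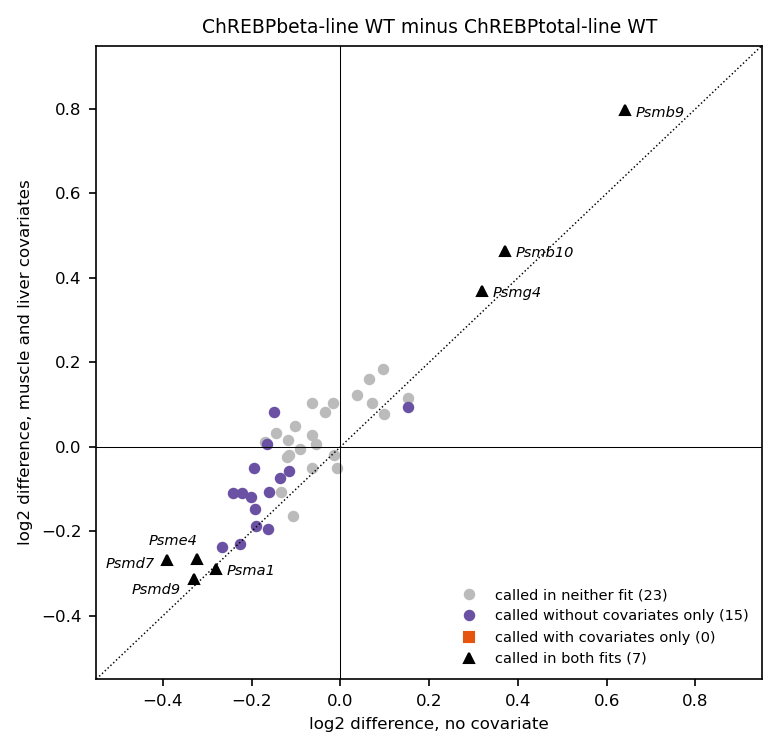
Log2 difference of each of the 45 members between ChREBPβ-line WT and total-line WT without covariates (x axis) and with the muscle and liver marker means of each array as covariates (y axis); the dotted line marks equal values. Black triangles are the 7 genes with an adjusted p under 0.05 in both fits, purple points the 15 called without covariates only; Psmb9, Psmb10 and Psmg4 lie at upper right.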

How the data were processed

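RNA of brown adipose tissue was labelled with Cy3 and hybridised to 32 Agilent 1-colour mouse arrays, 8 per group. The authors deposited Feature Extraction 10.10.1.1 files holding unnormalized spot intensities (median over pixels). They also deposited log2 values that had been filtered, normalized by quantiles and summarised as the median per probe. Probe coordinates are those of mm9. Here spots were kept that were detected above background on 26 or more arrays, or on 6 or more of 1 group. The same steps were then applied, and the mean absolute difference to the deposited log2 values was 0.00298 over all probes and 0.00928 over those of the members. Arrays have no read depth, and their number limits the precision.

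Probes were fitted with limma 3.58.1 (R 4.3.3; lmFit, eBayes) over all arrays with 4 group means. Two-sided p-values were adjusted (Benjamini-Hochberg) across every probe tested, and genes were called at an adjusted p under 0.05. The functions were tested on simulated data. Members and lists (partners, regulators, ubiquitin, antigen processing, cell type markers, motifs) were chosen with earlier results of these data known. Values are given in full for Psmb5 to Psmb10 and Psme1, the 6 highest and 6 lowest called members in total ChREBP KO, the called members (or the 4 lowest p) in ChREBPβ KO, and the 4 highest and 4 lowest for the other contrasts. Other members are named with their differences, and related genes where called. Psme2 and Paaf1 are not among the array's names, and some genes of the lists are counted but not reported here by name. Alternatives covered scaling, background, filters, batches, covariates, thresholds, probe choice and leaving out each array.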

Additional observations from a re-analysis of the deposited data

Results flagged for a closer look

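A single array lay apart from its group for 3 of the 88 group values of the named members, by the gap to the nearest array over the range of the group, and chance gives about 1 in 20. For Psmb8 this was ChREBPβ-line WT replicate 6, at 11.10 against 10.31 for the next (0.793). For Psmb7 it was total ChREBP KO replicate 3, at 13.27 against 13.16 (0.587), and for Psme3 total ChREBP KO replicate 5, at 11.79 against 11.51 (0.544).

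The effects of the KOs differed, by the test of the difference itself in limma, for 16 of 45 members. For the 4 highest and the 3 lowest of these, the ChREBPβ KO difference minus the total ChREBP KO difference was 0.494 for Psmd14, 0.490 for Psmf1, 0.360 for Psmd7, 0.277 for Psma5, -0.154 for Psmb4, -0.458 for Psme1 and -0.461 for Psme3.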

How the results depend on the processing

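The count of members called in total ChREBP KO was 25 and stayed within 1.5 times of that in 18 of 19 alternatives, but only 1 member passed with a change of at least 1.5-fold as well, and leaving out 1 array gave 23 to 26. In ChREBPβ KO the count of 2 became 0 with slide as a fixed block, 0 with the groups of the contrast only, 0 at 1.5-fold and 0 at an adjusted p under 0.01, and leaving out 1 array gave 1 to 2. For the difference between KO effects the count of 16 became 0 at 1.5-fold and 8 at an adjusted p under 0.01, and leaving out 1 array gave 14 to 16. Between the WT groups the count of 22 became 7 with muscle and liver covariates, 6 with the muscle covariate and 1 at 1.5-fold, and leaving out 1 array gave 19 to 25. The cause of these shifts was not tested, beyond the stricter thresholds themselves. With the replicate block, the counts were 23, 1, 14 and 21. The highest counts under any alternative were 29, 2, 19 and 32, in the same order. Deviations of same-numbered KO and WT arrays correlated at -0.308 to 0.093 in the total line (0 of 8 pairs over 0.1). In the ChREBPβ line they correlated at -0.264 to 0.583 (6 of 8 pairs over 0.1). The main fits did not take the numbers as pairs, and for the ChREBPβ line these values do not settle whether they are. With the replicate block the Psmc4 call in ChREBPβ KO was lost. In total ChREBP KO a fixed slide block gave 4 higher and 16 lower members. Over 851 values of named members under the alternatives, 807 kept their direction and side of the threshold, 35 lost and 9 gained a call, and 0 of the called values reversed. Psmb7 between the WT groups lost its call in 7 of 16 alternatives. Of 26 members with more than 1 probe, 0 were called both ways. By a dimmer probe only, 4 were called in total ChREBP KO and 0 in ChREBPβ KO. For the difference between KO effects there were 3 such members, and between the WT groups 10.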

Other observations

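Psmc3ip, whose name begins like that of the proteasome ATPases but which encodes a recombination protein, lies outside the name pattern. It was lower in total ChREBP KO, with a log2 difference of -0.20 (limma adjusted p = 0.0343). The ChREBPβ KO difference of -0.16 did not pass the test.

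Among the brown adipocyte markers in total ChREBP KO, 3 of 6 were higher (Ppargc1a, Dio2 and Cox8b) and Elovl3 was lower, and 3 of 4 general adipocyte markers were higher. In ChREBPβ KO 0 of 6 and 1 of 4 passed the test (limma), with 2 and 1 at an unadjusted p under 0.05. Between the WT groups Cox8b was higher in the ChREBPβ line (0.21), and Ppargc1a (-0.65), Dio2 (-1.30) and Elovl3 (-1.17) were lower.

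ChREBPβ-line WT replicate 8 was the lowest of its group for 21 of 45 members, with a median deviation of -0.12 from the group means, and ChREBPβ-line WT replicate 5 the highest for 18, with 0.10.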
